A study of Mus musculus with 8 samples.

Results

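The transcript of Lep, the gene of leptin, was followed across the epididymal fat of 4 mouse lines. It was found by its symbol in the platform annotation of 2 Affymetrix chips. The search gave 1 probe set, u18812_s_at on chip A, and 0 on chip B, so Lep is 1 of 6137 genes named on the arrays and is read by 1 probe set of 13069 that are not controls. For each line, RNA from the epididymal fat of 20 males aged 42 days was pooled, and the pool was hybridised to 1 array of each chip, 8 arrays in all. The lines were DU6, DU6i, DUKs and DBA, and the labels name no treatment. By general knowledge, DU6 comes from long selection on body weight, DU6i was inbred from it, DUKs is an unselected control line and DBA is an inbred strain. The labels give leptin, insulin, diabetes and adiposity among the keywords, and the title of the series places the DU6 lines on one side and DUKs with DBA on the other. Each line has 1 Lep value with no replicate, and so few arrays limit the precision.

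Leptin is a hormone that fat cells release into the blood in proportion to the fat they store. It acts on its receptor, Lepr, in the hypothalamus, where signalling through the kinase Jak2 and the transcription factor Stat3 lowers food intake, and Socs3 and Ptpn1 damp the signal. Mice that lack leptin, the obese mutants in which the gene was found, overeat and become very fat. Large fat cells make more Lep mRNA than small ones, and insulin and glucocorticoids raise it while adrenergic signals lower it. In a whole fat pad, fewer fat cells and less Lep RNA per fat cell cannot be told apart.

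Lep is a protein-coding gene at chr6:29060221-29073876 in RefSeq's GRCm38.p6 assembly. Which exon the probes cover was not analysed here. The 250 bases before its start lie on the plus strand at chr6:29059971-29060220. They are shown because genes of the C/EBP and Sp1 factors, whose motifs they hold, have probe sets on these arrays. Those of Sp1 gave no signal above background. The bases are given 5′ to 3′ from RefSeq, with matches to 3 motifs in capitals.

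Lep: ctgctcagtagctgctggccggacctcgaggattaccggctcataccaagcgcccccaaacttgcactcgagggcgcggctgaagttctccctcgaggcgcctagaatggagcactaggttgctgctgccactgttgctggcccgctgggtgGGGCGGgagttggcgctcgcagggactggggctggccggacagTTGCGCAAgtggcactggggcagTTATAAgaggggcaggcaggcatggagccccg

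The motifs, searched on both strands, were the GC box GGGCGG bound by Sp1, the C/EBP palindrome TTGCGCAA and the TATA core TATAA. The GC box begins 98 bases before the start and the C/EBP palindrome 55 bases before it. The TATA core matches on both strands in overlapping positions, beginning 32 and 31 bases before the start. Of 32851 mouse promoters of this length, 32.7% hold GGGCGG, 22.8% hold TATAA and 54 (0.164%) hold TTGCGCAA. A match describes the letters and is no evidence of binding in these pools.

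Lep was above background in the fat of all 4 lines and differed widely between them. Its scaled intensity was 27777 in DU6i, 12446 in DU6, 8696 in DUKs and 3837 in DBA. DU6i was highest and DBA lowest, with the DU6 pool at 44.8% of the DU6i signal, DUKs at 31.3% and DBA at 13.8%. Every value was above the floor of the chip, 1022.8, the size that 95% of its negative signals stay within. The lowest, in DBA, was 3.75 times the floor.

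**Figure D1:**
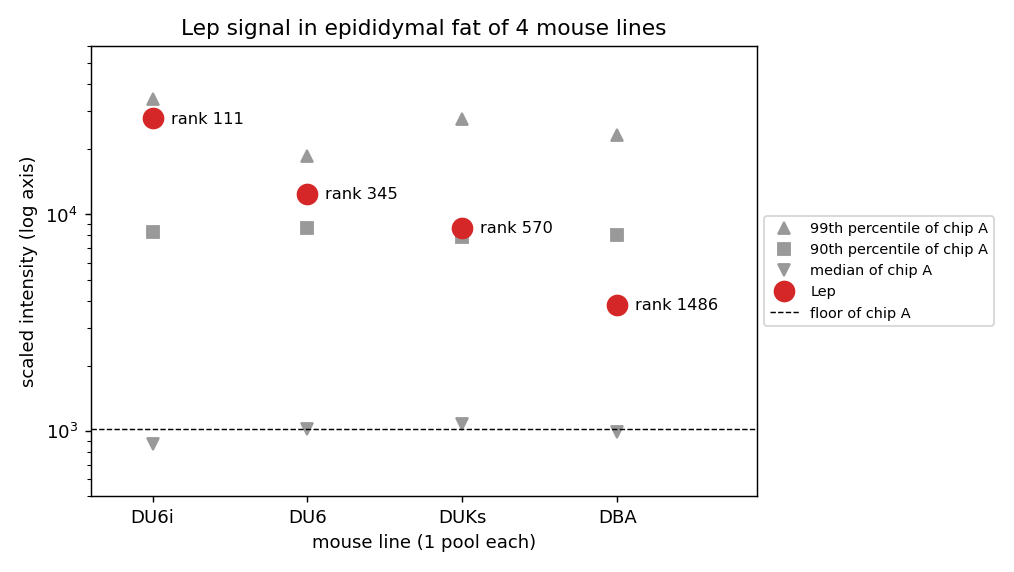
Scaled intensity of Lep (red circles, log axis) in the 1 pool of each line, with its rank among 6529 probe sets of chip A and, in grey, the median, 90th and 99th percentile of that array; the dashed line is the floor of 1022.8. Lep lies between the 90th and 99th percentile in DU6i, DU6 and DUKs and under the 90th percentile in DBA.

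The rank of Lep on its chip went the same way as its intensity. Among the 6529 probe sets of chip A that are not controls, Lep ranked 111th in DU6i (top 1.70%), 345th in DU6 (5.28%), 570th in DUKs (8.73%) and 1486th in DBA (22.8%). Among probe sets above the floor of the array, these ranks fall in the top 3.65%, 10.6%, 17.1% and 46.1%. A rank does not change when an array is rescaled, but it also depends on how well each probe set binds and is no measure of mRNA molecules. The ranges of the arrays differed: the 99th percentile of chip A was 34165 in DU6i, 27513 in DUKs, 23379 in DBA and 18704 in DU6. Of the 345 probe sets at least as bright as Lep on average, Lep included, 217 were highest in DU6i and 210 lowest in DU6. Lep did not share this order, since DU6 held its next-highest value. The median log2 ratio of these 345 probe sets was 0.52 in DU6i vs DU6, 0.35 in DU6i vs DBA and 0.29 in DU6i vs DUKs. It was 0.16 in DUKs vs DBA, -0.28 in DU6 vs DBA and -0.34 in DU6 vs DUKs.

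Lep was compared in the 6 pairs of lines by size alone, since 1 pool per line allows no test. The error available is technical: genes read by exactly 2 probe sets, all above the floor in the pair, gave the SD of a single log2 ratio. It does not cover differences between animals or between pools. Where both probe sets are on the same chip, it also leaves out the scaling error that they share. Differences between the probe sets of a gene are part of it. DU6i over DBA was the widest pair, with 7.24-fold more Lep signal in DU6i (log2 ratio 2.86, technical SD 0.34 from 348 genes). With signals under the floor set to it, no probe set of chip A measured in this pair had a higher ratio, though some of those ratios, such as that of Ghr (at least 6.95-fold), are lower bounds. Over both chips 4 did, all on chip B and none with a gene name here, and 3 of those 4 are lower bounds. A pair counted a probe set as measured when at least 1 of its 2 arrays was above the floor. Of 5556 measured probe sets, 266 (4.79%) reached 2-fold in favour of DU6i.

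Across the sides of the title Lep differed least between DU6 and DUKs. It was 1.43-fold higher in DU6 than in DUKs, with a log2 ratio of 0.52 and a technical SD of 0.44 (346 genes). The difference is smaller than 2 technical SDs (0.88), so that the neighbours DU6 and DUKs were not separated by this measure, which does not cover the scaling of the arrays. A ratio as high was found for 1031 of 5604 probe sets, and 219 (3.91%) reached 2-fold. Scaled to the Gapdh control probe set at the 3′ end, this difference was 2.44-fold, and scaled to that of actin it was 2.16-fold. The log2 ratios of all probe sets then shifted as well, with medians of 0.47 and 0.48.

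The other pairs across the sides, DU6 with DBA and DU6i with DUKs, gave similar sizes. DU6 over DBA was 3.24-fold (log2 ratio 1.70, technical SD 0.36), where 208 of 5491 probe sets (3.79%) reached 2-fold and 30, Lep included, had a ratio as high. DU6i over DUKs was 3.19-fold (log2 ratio 1.68, technical SD 0.40), where 189 of 5579 (3.39%) reached 2-fold and 29 had a ratio as high. Both ratios lie beyond 2 technical SDs.

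The related lines DU6i and DU6 differed 2.23-fold, a log2 ratio of 1.16 with a technical SD of 0.46. Of 5478 measured probe sets 312 (5.7%) reached 2-fold, and 222 had a ratio as high as Lep. The median log2 ratio was -0.07 over all of them, but 0.52 for the probe sets of chip A at least as bright as Lep. The Lep difference fell to 1.70-fold after quantile normalisation, which gives the 4 arrays of a chip 1 distribution. It was 1.08-fold when both arrays were scaled to the 3′ Gapdh control and 1.26-fold with the 3′ actin control. Those controls were themselves brighter in DU6i, with Gapdh at 35723 in DU6i and 17218 in DU6, and the median of all probe sets was -0.60 and -0.45 with these scalings. The part of this array difference in the Lep ratio was not tested. DUKs over DBA was 2.27-fold (log2 ratio 1.18, technical SD 0.41), where 342 of 5691 (6.01%) reached 2-fold and 231 had a ratio as high. With the control scalings it was 1.85-fold and 1.57-fold.

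**Figure D2:**
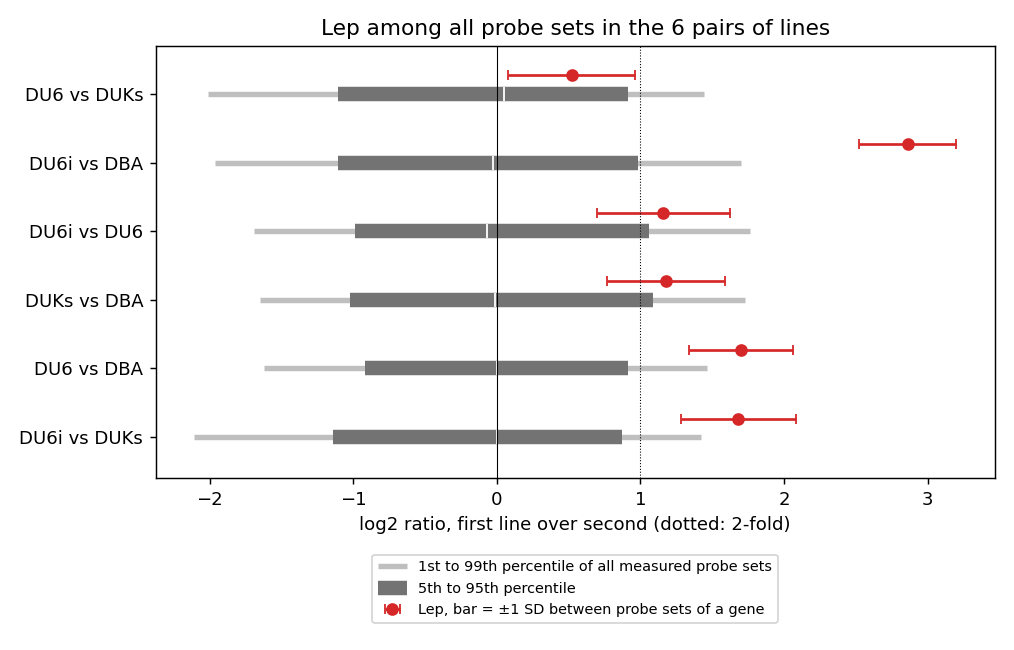
Log2 ratio of Lep in the 6 pairs of lines (red, bars of 1 technical SD) above the spread of all measured probe sets of both chips (grey, percentiles). Lep lies beyond the 99th percentile in DU6i vs DBA, DU6 vs DBA and DU6i vs DUKs and inside the central 90% in DU6 vs DUKs.

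The order DU6i, DU6, DUKs, DBA held for Lep in 30 of 30 pair values recomputed under 5 other scalings or log transforms. The transform log2(signal + floor) keeps the order of the values, so its part of this count was fixed in advance. With the 3′ Gapdh control the log2 ratio of DU6i vs DU6 was 0.11, under its technical SD of 0.46. With the lines as replicates of the sides of the title, DU6 and DU6i had a mean log2 signal of 14.18 and DUKs and DBA one of 12.50. The difference was 1.69 (SE 0.54), or 3.22-fold, and both DU6 lines lay above both control lines. By limma its unadjusted p was 0.0200 and its adjusted p 0.978 (Benjamini-Hochberg over both chips), so that it did not pass 0.05. Of 5267 probe sets tested, 0 (0%) passed, and 252 had an unadjusted p under 0.05. An exact permutation test of the 4 values gave a two-sided p of 0.333, the smallest that 2 lines against 2 allow. The spread here is between lines, and 1 of the DU6 lines descends from the other, which makes them related samples.

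Without DU6i the difference between the sides was 1.11, or 2.15-fold, and without DBA 1.10, or 2.14-fold. Without DU6 it was 2.27 (4.81-fold) and without DUKs 2.28 (4.85-fold).

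Among the other adipokines, Adipoq and Retn had another order of lines than Lep, while Orm1, Angptl4 and Nampt had the same. Adipoq, which encodes adiponectin, had 48251 in DU6i, 36670 in DUKs, 28894 in DBA and 21044 in DU6. Retn, which encodes resistin, had 42936, 28046, 21591 and 13502 in the same order. Both had their lowest value in DU6, where Lep had its next-highest. This is the order of the array ranges given above. After quantile normalisation Adipoq was nearly level, with log2 ratios between -0.17 and 0.17 in the 6 pairs. This was largely fixed by its rank, since Adipoq lay above the 99th percentile of every array and this method gives like ranks like values. With the same method Retn had a log2 ratio of -0.84 in DU6 vs DUKs and Lep one of 0.51. Rbp4, the retinol carrier, had 29418 in DU6i, 19230 in DBA, 14476 in DU6 and 13567 in DUKs. Orm1, an acute-phase protein made by fat as well, had 11833 in DU6i, 6848 in DU6, 5043 in DUKs and 4443 in DBA, which is the order of Lep over a narrower range. Angptl4, an inhibitor of lipoprotein lipase, had 17473, 13242, 11440 and 9225, and Nampt, an enzyme of NAD synthesis also released by fat, had 3427, 3055, 2816 and 2149, again in the order of Lep.

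Of 18 other adipokines listed, 13 were on the arrays and 10 were measured in DU6i vs DBA. Their median log2 ratio there was 0.71, against -0.03 over all probe sets and 2.86 for Lep; after quantile normalisation it was 0.29, with Lep at 2.58. In that pair 2 of the 10, Orm1 (2.66-fold) and Vegfa (at least 2.10-fold), were at 2-fold or more higher, against 4.79% of all probe sets. A ratio as high as that of Lep was found in 0 of the 10, but in only 5 of all 5556 measured probe sets, Lep included. In DU6 vs DUKs the median was -0.20, which turned to 0.06 after quantile normalisation. There 0 of 11 were at 2-fold or more higher, against 3.91% of all probe sets, and 2, Retn and the acute-phase gene Saa3, were lower by as much, against 6.3%. After quantile normalisation 1 of them was, and the share of all probe sets lower there was not computed. In DU6i vs DU6, 4 of 11 were higher at 2-fold or more, against 5.7% of all probe sets, and 1, Saa3, was lower, against 4.8%. The 4 became 2 after quantile normalisation, against 4.7% of all probe sets. Pairs with a line in common use its array jointly, so their values are not independent.

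**Figure D3:**
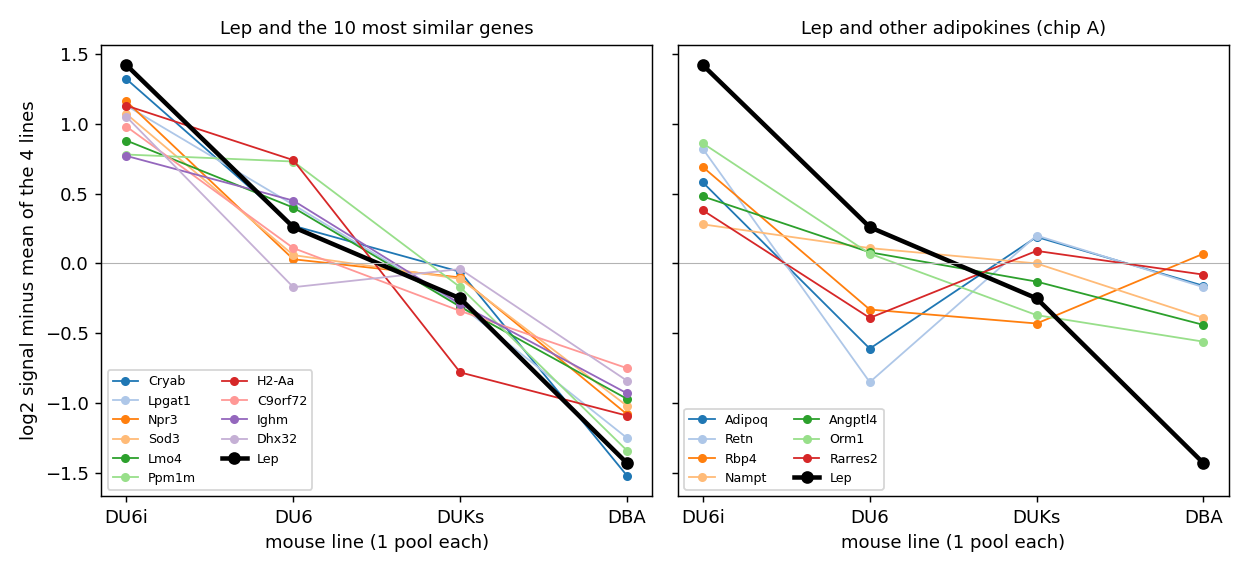
Log2 signal minus the mean of the 4 lines, for Lep (black) with the 10 genes whose pattern is most like it (left) and with the other adipokines of chip A above the floor on all 4 arrays (right); each point is 1 pool. The similar genes were chosen for their likeness, and Adipoq and Retn reach their lowest value in DU6.

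The mature adipocyte markers, a list of 30 genes of lipid storage and fat cell identity without Lep that includes Adipoq and Retn, had 21 members on the arrays, each above the floor on at least 1 array. Markers of the labelled tissue were seen, but not every one in every pool. Fabp4, the fatty acid carrier of fat cells, had 21433 to 48638 on chip A. Cidea was above the floor in DU6 alone (1144), and Adig was under it in DUKs (288). The median log2 ratio of the list was 0.77 in DU6i vs DBA, with 17 of 20 measured members higher, against 47.5% of all probe sets. At 2-fold or more 2 were higher (4.79% of all probe sets) and 1 lower (6.68%). None of the 20 had a ratio as high as Lep, but only 5 of all 5556 measured probe sets did, Lep included. Lep stood 2.08 above the list median. Probe sets of chip A at least as bright as Lep had a median of 0.35 in this pair. After quantile normalisation 16 of the 20 members were higher, where the median log2 ratio of all probe sets was 0.02. In DU6 vs DBA Lep stood 1.54 above the list median of 0.16 (-0.38 on chip A), and in DU6i vs DUKs 1.17 above 0.51. In DU6 vs DUKs the median was -0.31, with 2 of 21 members at 2-fold or more higher (3.91% of all probe sets) and 3 lower (6.3%), and Lep stood 0.83 above it. After quantile normalisation these counts were 1 and 1, with 3.86% of all probe sets higher by as much and the share lower not computed. The median in DU6 vs DUKs was then 0.01, with Lep 0.50 above it. That in DU6i vs DBA was 0.33, with Lep 2.26 above it. In DUKs vs DBA Lep stood 0.82 above the median of 0.37. In DU6i vs DU6 it stood 0.79 above a median of 0.37, but the 13 members on the chip of Lep had a median of 1.18 there, and against them Lep stood at -0.02. On chip A alone Lep stood 2.07 above the median in DU6 vs DBA. Of the 21 members 7 had a ratio as high as Lep in DU6i vs DU6, against 222 of 5478 probe sets (4.05%).

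Of 20 genes of leptin reception and signalling, 13 were on the arrays and 7 were above the floor on at least 1 array. Lepr itself was below 0 on all 4 arrays, between -100 and -27, so that this probe set gave no level of the receptor in fat. Stat3, the transcription factor of the receptor, was bright and close to level, at 13468 in DU6, 12673 in DU6i, 11180 in DBA and 10053 in DUKs. Another probe set of Stat3 had 3928, 3899, 4599 and 3502 in the same order of lines, with DBA highest. Jak2, the kinase of the receptor, had 1083, 1418, 1597 and 1335 in that order of lines, and its other probe sets were under the floor on all 4 arrays. The phosphatase Ptpn1 lay between 3551 and 4239. Socs3, the feedback inhibitor, was just above the floor in DU6, at 1034, and below it in the other 3 lines. In DU6i vs DBA 0 of 6 measured members were at 2-fold or more in either direction, where 4.79% of all probe sets were higher and 6.68% lower. The list median was 0.15 there. In DU6 vs DUKs it was 0.42, close to the 0.52 of Lep.

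Among 13 transcription factors of the fat cell, 8 were above the floor on an array. Cebpa, the C/EBP factor of mature fat cells, had 9751 in DUKs, 7988 in DU6i, 5948 in DU6 and 3735 in DBA. It was 2.14-fold higher in DU6i than in DBA and lowest in the line with the least Lep, but highest in DUKs and not in DU6i. Cebpb, an early C/EBP factor of fat cell formation, had 7288 in DU6, 6266 in DU6i and 4314 in DBA and was under the floor in DUKs. Pparg, the main regulator of fat cells, had 6564 in DU6i, 4914 in DUKs, 3935 in DU6 and 3489 in DBA. Hif1a, of the response to low oxygen, had 6065, 4594, 5554 and 2730 in that order of lines, and was 2.22-fold higher in DU6i than in DBA. Of the 8 factors measured in DU6i vs DBA, 2 were higher at 2-fold or more and 0 lower, against 4.79% and 6.68% of all probe sets. Sp1 and Rxra were under the floor of chip B on all 4 arrays, as was the glucocorticoid receptor gene Nr3c1.

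Of 16 genes of hormone input to the fat cell, 10 were on the arrays and 7 above the floor on at least 1. Ghr, the growth hormone receptor, had 7106 in DU6i, 3710 in DUKs and 1534 in DU6, with DBA under the floor, so that DU6i was at least 6.95-fold above DBA. The Lep ratio in that pair was 7.24-fold. DU6 lay 2.42-fold below DUKs for Ghr and above it for Lep. Slc2a4, the insulin-regulated glucose transporter, had 7895 in DU6, 7542 in DBA, 7265 in DU6i and 4869 in DUKs. Another of its probe sets had 8129 in DU6, 7286 in DU6i, 5584 in DUKs and 5341 in DBA, so that DBA was lowest there. Insr was under the floor on all 4 arrays. Hsd11b1, which makes active glucocorticoid, lay between 38440 and 61020, highest in DUKs.

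The genes with the pattern most like Lep were found among 3974 probe sets above the floor on all 4 arrays of their chip. The measure was the Euclidean distance over 4 log2 values, each probe set centred on its mean over the lines. With 4 points many genes can look alike, and 180 of the 3974 (4.53%) had the order of Lep. A range between the lines as wide as that of Lep was found in 23 probe sets, Lep included, and of these only Lep had its order. The cutoff is the range of Lep itself, so this count does not set Lep apart. Cryab, described below, had the same order and 7.19-fold more signal in DU6i than in DBA, against 7.24-fold for Lep.

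Nearest was Cryab, a small heat shock protein, at a distance of 0.23, with 8815 in DU6i, 4250 in DU6, 3376 in DUKs and 1226 in DBA. A second probe set of Cryab on chip B had 12310, 10715, 7161 and, under the floor, 1552, the same order. Lpgat1, a phospholipid acyltransferase, came next at 0.38, with 8946, 5502, 3334 and 1719. Its other 2 probe sets, both on chip A, had the same order, the brighter one with 21171, 15892, 10485 and 5877. Npr3, the clearance receptor of natriuretic peptides and a gene known to be high in fat cells, was at 0.52, with 11858, 5404, 4930 and 2501. Another of its probe sets, on chip A, had 13151 in DU6i and 13868 in DU6, so that the top of the order changed places.

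Sod3, the extracellular superoxide dismutase, was at 0.59 by its probe set of chip B, but its probe set on chip A put DUKs (17208) above DU6 (12485). The other 6 were Lmo4, a LIM-only cofactor of transcription, Ppm1m, a phosphatase, H2-Aa, a class II MHC chain, C9orf72, Ighm, the immunoglobulin mu chain, and Dhx32, a helicase, at distances of 0.73 to 0.85. The other probe sets of H2-Aa, 4 in number, lay at 1.96 or more from Lep, and the other Ighm probe set above the floor lay at 1.88.

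Transcripts of other tissues varied between the same pools. Germ cell genes, 18 of 20 on the arrays and each above the floor on at least 1, had a summed signal on chip A of 34861 in DU6i, 39394 in DU6, 78233 in DBA and 155584 in DUKs. Tnp1, a protein of the spermatid nucleus, ranged from 10822 in DU6i to 47073 in DUKs, and Odf1, of the sperm tail, was under the floor in DU6i and at 44685 in DUKs. In DU6 vs DUKs 16 of 17 measured members were at 2-fold or more lower, against 6.3% of all probe sets. Epithelial and mesothelial markers, 9 of 10 on the arrays, had a summed signal on chip A of 13851 in DU6i, 17663 in DUKs, 21785 in DU6 and 31875 in DBA, lowest and highest where Lep was highest and lowest. Krt8, a keratin of simple epithelia, was 2.86-fold higher in DBA than in DU6i and the epithelial cadherin Cdh1 3.26-fold. In DU6i vs DBA 5 of 9 were at 2-fold or more lower, against 6.68% of all probe sets. In DU6 vs DUKs they went the same way as Lep. There 7 of 9 were higher, against 54.1% of all probe sets, with a median log2 ratio of 0.57, where Lep had 0.52. Epididymis and male gland genes, 9 of 10 on the arrays above the floor on an array, summed to 22604 in DU6i, 32819 in DU6, 37536 in DBA and 50505 in DUKs on chip A. On chip B, which holds most of them, they summed to 2493 in DU6i, 51740 in DU6, 79900 in DUKs and 133679 in DBA. Most of the DBA sum came from the seminal vesicle genes Svs2 (19922), Svs4 (42807) and Svs5 (43837), named after their values were seen and above the floor in DBA alone. Without these 3 the sum was 2239 in DU6i, 27112 in DBA, 51740 in DU6 and 79828 in DUKs. Their part in the Lep differences was not tested.

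**Figure D4:**
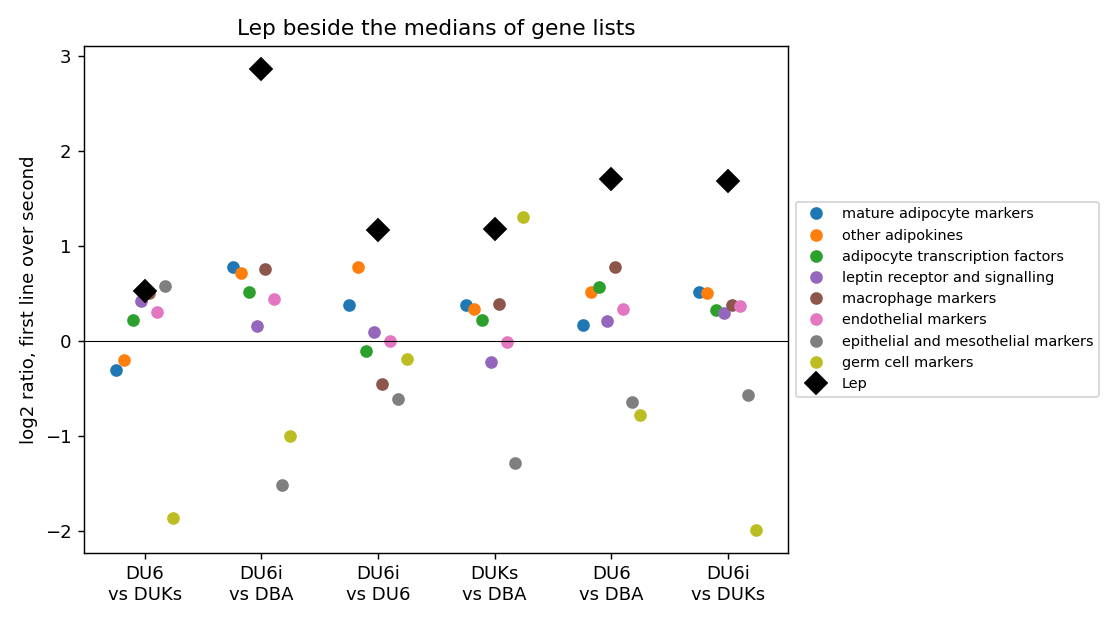
Log2 ratio of Lep (black diamonds) beside the median log2 ratio of 8 gene lists in the 6 pairs of lines. Lep lies above the median of every list shown in DU6i vs DBA, DU6i vs DU6, DU6 vs DBA and DU6i vs DUKs. It lies below that of the germ cell markers in DUKs vs DBA and that of the epithelial and mesothelial markers in DU6 vs DUKs.

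Macrophage markers, all 18 on the arrays above the floor on at least 1, had median log2 ratios of 0.75 in DU6i vs DBA, 0.50 in DU6 vs DUKs and, between the related lines, -0.46 in DU6i vs DU6. Lyz2 and C1qc were the brightest on average, Lyz2 with 41964 in DU6i and 19244 in DU6 and C1qc with 14594 and 26900. Endothelial markers had medians of 0.44 and 0.30 in the first 2 of these pairs. Preadipocyte and stromal markers had 0.24, 0.34 and -0.39 in the 3 pairs; the first turned to -0.09 on chip A alone and the last to 0.08 after quantile normalisation. Skeletal muscle markers, 5 of 10 above the floor on an array, had a median of 0.83 in DU6i vs DBA. Of the lymphocyte markers 4 of 9 were above the floor, too few for a median to be read. The pools also differed in 3 controls for the length of the labelled cRNA. The middle probe set of pyruvate carboxylase had 54.5% of the 3′ signal in DU6i, 53.9% in DUKs, 19.5% in DBA and 15.3% in DU6. The 5′ probe set of Gapdh had 111% of the 3′ signal in DU6, 97.0% in DU6i, 84.7% in DUKs and 82.1% in DBA, with the DU6 lines above the others as for Lep. That of actin had 47.2%, 40.6%, 58.0% and 43.0% in the same lines. The part of these controls in the Lep differences was not tested.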

How the data were processed

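Pools of epididymal fat RNA from 4 lines were measured on 2 chips. Per the labels, the authors used Microarray Suite 4.0.1 for the intensity of each probe set, together with Data Mining Tool 1.2, and scaled arrays on all probe sets. As deposited, the intensity is on a linear scale and reaches below 0. That they are average differences between matched and mismatched probes is not stated.

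Probe sets were named by the supplied platform annotation with symbols updated through a table of mouse genes. On chip A 5560 had 1 symbol, 197 several and 827 none here; on chip B 2001, 27 and 4567. Controls (55 per chip) were left out. Signals at or under a floor, 1022.8 on chip A and 2258.25 on chip B, were set to it before log2. Of several probe sets of a gene, the brightest on average was used. A difference of 2-fold or more is a rule of size. limma 3.58.1 (R 4.3.3) compared the sides on probe sets that exceeded the floor on 2 or more arrays, after a check on simulated data. Other settings were quantile normalisation, scaling to one median, floors halved and doubled, log2(signal + floor), no filter and leaving out each line; scaling to control probe sets was added after seeing the data.

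Lep and the gene lists were chosen with earlier results of these data known. Genes to name were Lep, members of the 4 lists on leptin and the fat cell and the 10 genes nearest to Lep in pattern. The 2 brightest of other cell types' lists were also to be named. Fabp4, Cidea and Adig were added after their values were seen.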

Additional observations from a re-analysis of the deposited data

How the results depend on the processing

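Halving or doubling the floor cannot move Lep, which lies above both. Under the other 5 settings its 30 recomputed pair ratios kept their direction, and 19 stayed within 1 technical SD and on the same side of 2-fold. Those with log2(signal + floor) could not change direction, since this transform keeps the order of the values. After quantile normalisation DU6i vs DU6 had a log2 ratio of 0.77, and with log2(signal + floor) DUKs vs DBA had 1.0, just under 2-fold before rounding. The 9 remaining moves came from scaling to control probe sets, an alternative added after seeing the data. With the 3′ Gapdh control the log2 ratios were 2.17 in DU6 vs DBA, 1.29 in DU6 vs DUKs, 2.28 in DU6i vs DBA, 0.11 in DU6i vs DU6 and 0.89 in DUKs vs DBA. With the 3′ actin control they were 1.11 in DU6 vs DUKs, 2.09 in DU6i vs DBA, 0.33 in DU6i vs DU6 and 0.65 in DUKs vs DBA. In DU6i vs DU6 the median of all probe sets was -0.60 with Gapdh and -0.45 with actin, against -0.07 as deposited. Lep minus the adipocyte marker median moved on chip A alone, to 2.07 in DU6 vs DBA and -0.02 in DU6i vs DU6. Among probe sets above the floor the rank of Lep was in the top 3.65% (DU6i), 10.6% (DU6), 17.1% (DUKs) and 46.1% (DBA), because fewer probe sets were counted. The limma difference stayed above 0 in all 10 alternatives, but most of these could not reverse it. The floor settings and the missing filter leave the Lep values as they are, and log2(signal + floor) keeps their order. Leaving out 1 line gave 1.10 to 2.28, with the sign fixed because both DU6 lines lay above both others. With all 4 lines kept, the difference passed in none. With no filter on low signals limma called 4 probe sets, Lep not among them. No paired analysis was possible because each line has 1 pool and the labels give no replicate numbers. A pool of 20 hides the spread between animals.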
